A study of Mus musculus with 2 samples.

Results

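The histone genes described here are the 69 genes, of 54838 in the count tables, whose symbols begin with Hist1h to Hist4h, H2af, H3f3 or H1f and which had at least 20 UMIs over both libraries (a UMI, or unique molecular identifier, counts 1 captured RNA molecule). In all, 91 symbols matched, and 22 of them fell below that minimum, 12 with no UMI. The 69 were made up of 57 replication-dependent genes (5 for H1, 14 for H2A, 16 for H2B, 11 for H3 and 11 for H4), 10 replacement genes, and 2 that do not encode a histone by their annotation, the antisense transcript H3f3aos and the pseudogene H3f3c. Live immune cells were taken from digested intestine by FACS, with GFP and tdTomato in the gating, in WT mice and in DPF2 KO mice, both given 10 Gy of X-rays. Each genotype was measured in 1 droplet library that captured polyadenylated RNA, so no difference between WT and KO has a replicate check, and no test was run. Not stated in the labels are how long after irradiation cells were taken, the age, sex or number of the mice, the deleted part of Dpf2, or what drives the knockout and the reporters. There was no unirradiated group.

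Dpf2 encodes a PHD finger subunit of BAF chromatin remodelling complexes. Its level was 33.3 CPM in WT (1916 UMIs) and 19.6 in KO (885 UMIs), a ratio of 0.589 (0.543 to 0.638). The transcript was therefore lower but still detected in the library labelled KO. Where its reads lie relative to the deletion is not known, so this does not check the label for certain. Here and in what follows, a level is in CPM, the UMIs of a gene per 1000000 UMIs of the same cells, a ratio is KO over WT unless dividing over other cells is named, and brackets after a ratio give its 95% interval, which covers counting error only. Levels are not per transcript length.

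Histones package DNA: the core histones H2A, H2B, H3 and H4 form the nucleosome, and the linker histone H1 binds the DNA between nucleosomes. Replication-dependent histone genes are transcribed mainly in S phase, and most of their mRNAs end just after a stem-loop, bound by Slbp, in place of a poly-A tail. Replacement histones such as H3.3 (H3f3a and H3f3b) and H2A.Z (H2afz) are made throughout the cell cycle from polyadenylated mRNAs and enter chromatin outside replication. A poly-A library therefore sees replacement transcripts well, and sees replication-dependent ones as far as they carry a tail or a run of A.

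The WT library kept 10259 of 10958 barcodes, with 57454263 UMIs and a median of 4543 per cell. The KO library kept 8265 of 8794 barcodes, with 45042048 UMIs and a median of 4112. Both libraries shared 24 barcodes. Histone genes held 0.541% of the UMIs in WT and 0.414% in KO. Comparison was by 12 classes that had 100 or more cells in both libraries. Class names stand for clusters led by genes typical of that cell type, and clusters 5, 8 and 14 stay numbered (led by Il17a and Il23r, by Gm26917 at a low median of 1156 UMIs, and by Itgb8 and Foxp3). The mix differed: T cells were 26.8% of WT and 13.3% of KO cells, and B cells 10.9% and 30.2%. T cell cluster 2 held 45.3% of T cells in WT and 27.7% in KO, and cluster 4 held 31.5% and 34.5%. Cluster 12, led by Lef1, held 6.69% of T cells in WT and 26.9% in KO. At a finer resolution, 1 B cell cluster had 3 WT and 346 KO cells. Plasma cells were mostly in cluster 1 in both libraries, but at a finer resolution they divided into one cluster of 1232 WT and 256 KO cells and one, led by Ighg2b, of 56 WT and 310 KO cells. Stromal cells (563 in WT and 95 in KO) and a cluster led by Defa24 (2 and 246) were found in this immune cell sort and were not compared by class.

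Of the 57 replication-dependent genes, 46 lie on chromosome 13 between 21715763 and 23764406, 8 on chromosome 3, 2 on chromosome 11 and 1 on chromosome 6, and 53 have a single exon. Their annotated transcripts end at different distances from the stem-loop. It was searched as a pattern of 16 bases in GENCODE M21 transcripts (GRCm38) and is shown in capitals with up to 7 bases on each side, 5′ to 3′ as RNA runs but written as DNA. These 6 genes are shown because they span the pattern from a transcript that stops at the loop to ones that run far past it, and because the results turn on them.
Hist1h2ap chr13:21833026-21833051 (minus strand): aaaaaaaGGCTCTTTTCAGAGCCatc
Hist1h3c chr13:23745040-23745069 (minus strand): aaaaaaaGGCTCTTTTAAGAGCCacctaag
Hist1h1c chr13:23739505-23739534 (plus strand): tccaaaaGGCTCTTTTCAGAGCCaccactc
Hist4h4 chr6:136803991-136804020 (minus strand): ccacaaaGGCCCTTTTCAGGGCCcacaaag
Hist1h4i chr13:22040959-22040988 (minus strand): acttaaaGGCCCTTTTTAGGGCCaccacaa
H2afx chr9:44335233-44335262 (plus strand): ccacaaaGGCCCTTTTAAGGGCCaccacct

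The transcript of Hist1h2ap (H2A) ended 3 bases after the loop, and that of Hist1h3c (H3) 74 bases after it. The transcript of Hist1h4i (H4) ran 330 bases on, that of Hist1h1c (linker histone H1.2) 840 bases with an AATAAA polyadenylation signal, and that of Hist4h4 (H4) 2445 bases, also with AATAAA. H2afx encodes H2A.X, which is phosphorylated at DNA breaks. It was the only replacement gene with the loop, 822 bases before its end. Among the 57 replication-dependent genes, 19 transcripts ended within 100 bases of the loop, 21 ran on for 100 bases or more (12 of these with AATAAA), and 17 models, among them Hist1h1b and Hist1h2bc, held no such loop. Of all 21901 protein-coding genes 53 (0.242%) held the pattern, and 47 of these were histone symbols.

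Promoters of 4 genes, taken from RefSeq (GRCm38.p6) as the 250 bases before the gene's start, are printed because H3f3b and H3f3a encode the same protein and differed in direction between the libraries in the pool of all cells (within classes no H3f3a interval lay above 1), and Hist1h2bb and Hist1h1b show the box arrangements of replication-dependent genes. Capitals mark matches on both strands to the TATA box TATAAA, to the CCAAT box, to the octamer ATTTGCAT and to TGACGTCA, the element bound by CREB proteins. A base may belong to 2 matches.
H3f3b chr11:116024505-116024754 (minus strand): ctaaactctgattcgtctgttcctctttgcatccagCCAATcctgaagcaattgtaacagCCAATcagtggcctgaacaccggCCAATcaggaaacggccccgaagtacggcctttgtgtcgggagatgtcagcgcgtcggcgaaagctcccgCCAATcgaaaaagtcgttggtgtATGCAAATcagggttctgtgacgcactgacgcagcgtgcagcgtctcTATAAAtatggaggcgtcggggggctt
H3f3a chr1:180813606-180813855 (minus strand): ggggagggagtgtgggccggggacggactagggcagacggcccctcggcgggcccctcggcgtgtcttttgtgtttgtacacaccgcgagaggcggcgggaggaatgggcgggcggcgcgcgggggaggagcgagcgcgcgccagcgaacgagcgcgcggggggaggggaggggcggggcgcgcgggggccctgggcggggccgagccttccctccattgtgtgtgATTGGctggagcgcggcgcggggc
Hist1h2bb chr13:23746484-23746733 (plus strand): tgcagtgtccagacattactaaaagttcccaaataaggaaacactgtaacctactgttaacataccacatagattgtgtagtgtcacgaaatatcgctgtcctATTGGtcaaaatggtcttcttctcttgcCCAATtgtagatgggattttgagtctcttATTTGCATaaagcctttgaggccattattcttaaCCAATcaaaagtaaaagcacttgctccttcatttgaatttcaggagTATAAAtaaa
Hist1h1b chr13:21780626-21780875 (minus strand): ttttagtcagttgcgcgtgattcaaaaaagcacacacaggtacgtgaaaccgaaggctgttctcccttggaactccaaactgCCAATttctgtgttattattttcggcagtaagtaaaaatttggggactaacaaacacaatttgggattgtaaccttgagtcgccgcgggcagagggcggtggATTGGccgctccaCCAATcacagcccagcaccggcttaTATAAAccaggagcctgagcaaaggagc

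The H3f3b promoter held 4 CCAAT, 1 octamer and 1 TATAAA, and the H3f3a promoter held 1 CCAAT alone. Hist1h2bb had 3 CCAAT, 1 octamer and 1 TATAAA, and Hist1h1b had 3 CCAAT and 1 TATAAA. Over the 53 promoters listed for 52 replication-dependent members, CCAAT was in 45 (84.9%) against 33.8% of all 32851 promoters in the table, TATAAA in 26 (49.1%) against 12.4%, the octamer in 11 (20.8%) against 1.60%, and TGACGTCA in 4 (7.55%) against 1.55%. CCAAT was in all H1, H2A and H2B promoters and in 8 of 9 for H3. For H4 it was in 3 of 10 (30%), near the share of all promoters. The octamer was found in 5 of 14 H2A and 6 of 15 H2B promoters and in none for H1, H3 or H4. The H3f3b and H3f3a windows lie inside the spans given for these genes, since annotated starts differ. A match describes the letters in this window and is not a measured binding site.

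Among the replacement histones, which carry most histone UMIs, H3f3b had the most UMIs. H3f3b (chr11:116021912-116027962) had a level of 2924 in WT and 1894 in KO, a ratio of 0.648 (0.642 to 0.653), while H3f3a (chr1:180800832-180813943) had 678 in WT and 741 in KO, a ratio of 1.09 (1.08 to 1.11). Both encode histone H3.3, which is laid down at active genes and regulatory regions, and they differed in direction: H3f3b made up 81.2% of the UMIs of the pair in WT and 71.9% in KO. Their sum was 3602 in WT and 2636 in KO, a ratio of 0.732 (0.727 to 0.737). Per UMI, H3f3b thus stayed the main H3.3 transcript in both libraries, by a smaller margin in KO.

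H3f3b was lower in KO in all 12 classes, each with an interval below 1. The neutrophil level was 5273 in WT and 2402 in KO, the lowest ratio at 0.455 (0.431 to 0.481). Monocytes or macrophages followed with 3808 in WT and 2015 in KO (0.529, 0.519 to 0.539). Plasma cells had 3815 in WT and 2239.9 in KO and conventional dendritic cells 2612 in WT and 1638 in KO, ratios of 0.587 (0.575 to 0.599) and 0.627 (0.613 to 0.642). These were the 4 lowest ratios. Neutrophils, plasma cells and monocytes or macrophages, the 3 classes with the highest WT levels, were thus the furthest apart. B cells had 2651 in WT and 1835 in KO (ratio 0.692). In T cells the level was 2339.6 in WT and 1839 in KO, in NK cells 2517 in WT and 1969 in KO, in ILC2 2511 in WT and 1953 in KO, and in ILC3 2432 in WT and 1719.7 in KO. The ratios of these lymphoid classes ran from 0.692 to 0.786, and clusters 5, 8 and 14 had ratios of 0.781, 0.651 and 0.753. Over the classes the level ran from 2021 to 5273 in WT and from 1486 to 2402 in KO.

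H3f3a shared this pattern only in some classes. Neutrophils had 1058 in WT and 1059 in KO, conventional dendritic cells 952 in WT and 946 in KO and monocytes or macrophages 1079.5 in WT and 1019 in KO, so the libraries lay close there. It was 575 in WT and 493 in KO in T cells, 1004 in WT and 870.3 in KO in B cells and 348 in WT and 288 in KO in plasma cells, lower in KO in each. Over the 12 classes its ratio ran from 0.765 to 1.001, with 6 intervals below 1 and none above. Unlike in the pool of all cells, no class interval lay above 1. With classes weighted alike the H3f3a level was 754 in WT and 683 in KO (0.906), and the H3f3b level 2903 and 1902 (0.655). In monocytes or macrophages H3f3b's share of the pair was 77.9% against 66.4% in KO. In neutrophils it was 83.3% against 69.4%, and in dendritic cells 73.3% against 63.4%. It was nearly level in T cells (80.3% and 78.8%), ILC2 (83.7% and 82.7%) and cluster 5 (81.7% and 82.0%).

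**Figure D1:**
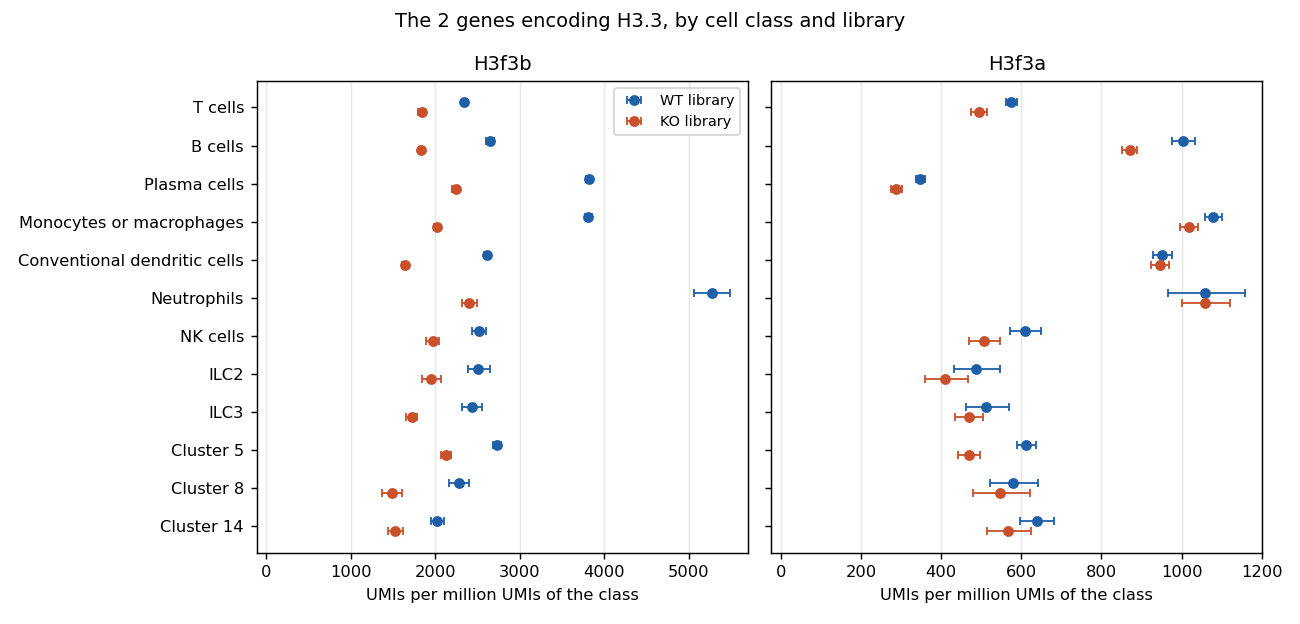
Levels of H3f3b and H3f3a (CPM) in 12 cell classes; points are the WT and KO libraries and bars are 95% counting intervals. H3f3b is lower in KO in every class, from 5273 against 2402 in neutrophils to 2340 against 1839 in T cells. H3f3a ratios run from 0.765 to 1.001, with 6 of 12 intervals below 1.

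Other values moved with the libraries too. Levels were also summed over 12 heat shock and immediate early genes, possible signs of handling that are called handling genes below. The sum was 4501 in WT and 6134 in KO, higher in KO in 11 of the 12 classes and lower in neutrophils (13732.5 and 9125). Mitochondrial UMIs were 1.80% and 2.16%, and in neutrophils 1.44% and 2.81%. All 7 Paneth cell markers were higher in KO within the 12 classes and none was at 0, with summed levels by class of 3.36 to 46.5 in WT and 46.2 to 185 in KO. Their part in the H3f3b difference was not tested. Among other abundant genes (500 CPM or more) with a span of up to 10 kb, only 1 of 109 had a lower log2 ratio than H3f3b in all cells, 0 of 141 in monocytes or macrophages, 1 of 122 in dendritic cells and 4 of 111 in neutrophils. In T cells this was 20 of 113 and in cluster 14 34 of 109. The median log2 ratio of those genes was 0.02 in all cells and −0.04 to −0.36 over the classes.

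The other replacement members were lower in KO over all cells, each with an interval below 1. H2afz, the H2A.Z gene, had 952 in WT and 836 in KO (ratio 0.878), and over 12 classes its ratio ran from 0.557 in plasma cells to 1.05 in dendritic cells, with 10 intervals below 1 and 1 above. H2afv, which encodes the other H2A.Z protein, had 104 in WT and 74.2 in KO (0.713), with 9 of 11 class intervals below 1. H2afy, the macroH2A1 gene, had 204 in WT and 172 in KO (0.841), with 9 of 12 below 1. Most classes thus shared the direction for these 3 genes. H2afx had 28.2 in WT and 18.9 in KO (0.670), and 6 of 8 class intervals lay below 1. H2afj, a replacement H2A, had 126 in WT and 116 in KO (0.916). The linker histone gene H1f0 had 32.4 in WT and 22.5 in KO (0.696). In plasma cells both of these were higher in KO: H2afj at 104 in WT and 143 in KO (1.37, 1.24 to 1.498) and H1f0 at 62.2 in WT and 73.7 in KO (1.19, 1.04 to 1.34). H1fx, another linker histone, and H2afy2, the macroH2A2 gene, were rare, with 3.81 in WT and 2.42 in KO for the former and 1.60 in WT and 0.622 in KO for the latter (92 and 28 UMIs, ratio 0.388, 0.245 to 0.598). H3f3aos (40 and 44 UMIs) and H3f3c (16 and 18) had intervals that included 1. H3f3aos overlaps H3f3a on the other strand. No source used here gives the strand setting of the counting.

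Dividing cells, those with 3 or more UMIs of Mki67 and Top2a together, were richer in replication-dependent histone transcripts. The summed level was 280.4 in other and 1069 in dividing cells in WT, a ratio of 3.81 (3.70 to 3.93), and 226 in other and 753 in dividing cells in KO, a ratio of 3.34 (3.18 to 3.50). Replacement members summed to a ratio of 1.44 in WT and 1.51 in KO. In WT 29.2% of replication-dependent UMIs came from dividing cells, which held 9.78% of all UMIs, and in KO 17.8% against 6.11%. By protein, dividing over other ratios in WT and KO were 12.2 and 9.84 for H2A, 6.42 and 4.08 for H3, 3.83 and 2.67 for H4, 2.04 and 1.64 for H1, and 1.91 and 1.88 for H2B. The H2A sum thus differed most between dividing and other cells, and the H2B and H1 sums least. The H1 sum rests on Hist1h1c: the other 4 H1 genes together had a ratio of 12.5 (11.4 to 13.7) in WT and 9.84 (8.34 to 11.6) in KO, near that of H2A. Hist1h2bc, the H2B gene with the most UMIs, was not higher in dividing cells in WT (its ratios are given below). An H2B sum without it was not computed, so the low H2B ratio may not hold for the other H2B genes. Dividing cells were deeper, with medians of 12314 UMIs against 4427 in WT and 15134 against 4052 in KO. With cells thinned to 2000 UMIs the ratio was 2.17 in WT and 2.03 in KO, with dividing then meaning 1 or more Mki67 or Top2a UMIs.

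After adding 10 CPM, 16 of 54 members with enough UMIs were at least 2-fold higher in dividing cells in WT (2.57% of all genes were), 13 of them replication-dependent and 3 replacement, and none was 2-fold lower (2.33%). In KO 10 of 46 were higher (2.90%) and none lower (1.46%). By the weaker rule of a counting interval wholly on one side of 1, 42 of the 54 lay above 1 in WT (30.2% of all genes) and 4 below (26.5%), and in KO 29 of 46 lay above (26.6%) and 1 below (22.0%). The 3 replacement members 2-fold higher were H2afx (WT and KO ratios 6.18 and 4.14), H2afv (3.72 and 2.70) and H2afz (2.44 and 2.62). The H3.3 genes differed little, at 1.36 and 1.15 for H3f3a and 1.09 and 1.13 for H3f3b.

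Among members with 50 or more UMIs over both libraries, the same 5 had the highest dividing over other ratios in WT and in KO. Below that minimum Hist1h2af (H2A, 48 UMIs in all) had ratios of 53.0 and 65.3. Hist1h3c (H3) had 0.752 in other and 37.4 in dividing cells in WT, a ratio of 49.7 (35.2 to 71.8), and 65.8 in KO. Hist1h2ab (H2A) had a ratio of 46.1 (25.7 to 88.7) in WT and 23.6 (11.2 to 51.7) in KO. Hist1h1b (linker histone H1.5) had 2.55 in other and 101 in dividing cells in WT (39.5, 32.7 to 48.2) and 1.30 in other and 43.2 in dividing cells in KO (33.2, 23.96 to 46.6). Outside dividing cells Hist1h3c and Hist1h1b were thus close to undetected. Hist1h2ap (H2A) was the most abundant of this kind, with 9.26 in other and 272 in dividing cells in WT, a ratio of 29.3 (26.5 to 32.6), and 8.37 in other and 249 in dividing cells in KO, a ratio of 29.7 (26.1 to 33.8). Hist1h3b (H3) had ratios of 25.99 (12.7 to 57.3) and 35.9 (8.18 to 215) on few UMIs. Hist1h2ap shares 93.1% of its 50-base words with Hist1h2ao (6 UMIs), so reads of these copies may not be told apart and its count may be off.

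At the other end stood genes that were as high in non-dividing cells, in 1 library or in both. Hist1h1c, the most abundant replication-dependent member, had 119 in other and 76.3 in dividing cells in WT (ratio 0.644, 0.583 to 0.710) and 84.5 in other and 65.8 in dividing cells in KO (0.778, 0.666 to 0.904). Hist1h2bc (H2B) had ratios of 0.804 (0.671 to 0.957) in WT and 1.65 (1.36 to 1.98) in KO, so in KO it was higher in dividing cells. Hist2h2be, another H2B gene, had the lowest WT ratio among replication-dependent members with that many UMIs, at 0.106 (0.00265 to 0.606), and Hist2h3c2 (H3) had 0.791 (0.281 to 1.81). The lowest in KO were Hist4h4 at 0.555 (0.263 to 1.04), Hist1h2be (H2B) at 0.681 (0.368 to 1.16) and Hist1h4a (H4) at 0.753 (0.239 to 1.82). H2afy2 was low in both, at 0.101 (0.00254 to 0.579) and 0.569 (0.0139 to 3.45). Several of these rest on few UMIs in dividing cells, as their intervals show.

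**Figure D2:**
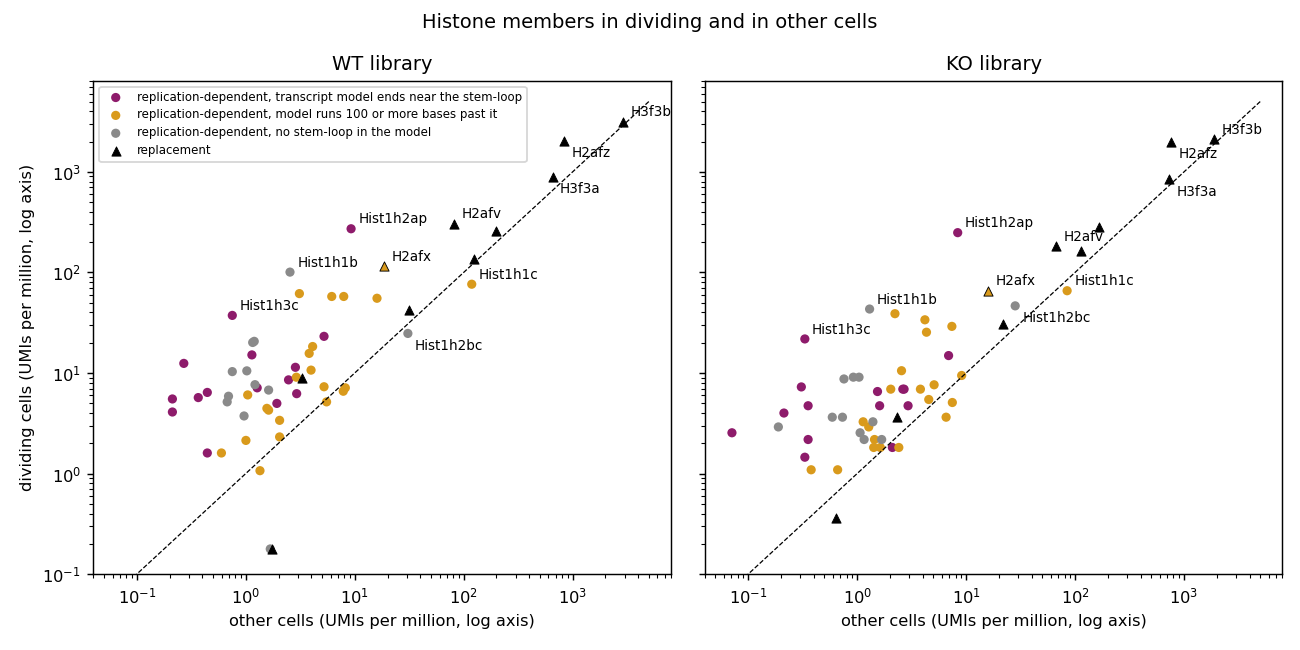
Level of each member in dividing cells against other cells (CPM, both axes logarithmic) in the WT and KO libraries; circles are replication-dependent genes coloured by how the annotated transcript ends, triangles are replacement genes, and the dashed line marks equal levels. Hist1h2ap and Hist1h1b lie far above the line, while Hist1h1c lies below it (119 in other and 76.3 in dividing WT cells) and H3f3b lies close to it.

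The end of the annotated transcript went with this split. The 19 genes whose transcripts end near the stem-loop summed to 30.6 in other and 430.1 in dividing WT cells, a ratio of 14.1 (13.2 to 14.99), and a ratio of 10.9 (10.0 to 11.8) in KO. The 21 that run on summed to 205 and 414 in WT, a ratio of 2.02 (1.93 to 2.11), and 1.72 (1.59 to 1.85) in KO. The 17 without a loop in the model lay between, at 4.99 (4.65 to 5.34) and 3.64 (3.26 to 4.06). In dividing WT cells the first pair of groups had much the same level, and in other cells the genes that run on held most of the UMIs. Single genes overlapped between the groups: member ratios ran from 2.12 to 49.7 for the first and from 0.644 to 19.8 for the second. The run-on sum depends much on Hist1h1c, which held 32.0% of replication-dependent UMIs in WT and had that lowest ratio. By member, the median WT ratio was 13.3 for genes ending near the loop and 2.68 for those that run on. It was 8.45 for those without a loop in the model. In other cells KO over WT was 1.03 (0.955 to 1.11) for genes ending near the loop. It was 0.753 (0.730 to 0.777) for those that run on, Hist1h1c included.

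Within dividing cells the replication-dependent level was not higher in cells that lean to S phase. Cells with more UMIs of 20 S phase genes than of 18 G2 and M phase genes numbered 285 in WT against 112 with fewer (19 ties, 70 cells within 2 UMIs of the cut), and their levels were 1010.0 and 1239, a ratio of 0.815 (0.772 to 0.861). In KO there were 126 and 26 cells with levels of 749 and 785 (0.954, 0.850 to 1.07). H2afz was higher in S-leaning cells in WT (ratio 1.20) and lower in KO (0.838), and H2afx was lower in both (0.730 and 0.538). Because dividing cells were defined by Mki67 and Top2a, which peak in G2 and M phase, cells early in S phase may be counted among the other cells. The lists also differ in baseline: in other WT cells the S phase sum was 366 and the G2 and M phase sum 76.1. A cell with few cell cycle UMIs may therefore lean to S phase by this rule. The comparison thus cannot decide how the level differs between the phases.

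Between the libraries, the replication-dependent sum was 358 in WT and 258 in KO over all cells, a ratio of 0.722 (0.705 to 0.738). No member of 59 with enough UMIs was 2-fold higher in KO (0.346% of all genes) or 2-fold lower (1.10%). By interval, 26 of 48 replication-dependent and 9 of 10 replacement members lay below 1 (31.8% of all genes) and 1 member, H3f3a, above (31.6%). In other cells the sum was 280.4 in WT and 226 in KO (0.805, 0.785 to 0.827), with 12 of 40 replication-dependent members below 1 (30.7% of all genes) and 2 above, Hist2h2aa1 and Hist4h4 (32.1%). The share of these members below 1 in other cells was thus close to that of all genes. In dividing cells the sum was 1069 in WT and 753 in KO (0.705, 0.670 to 0.741). Here 16 of 28 lay below 1 (26.2% of all genes) and 1 above, Hist1h2bc (22.8%). One member was 2-fold lower (2.25%), Hist1h1b, with 101 in WT and 43.2 in KO (0.429, 0.349 to 0.524), and none was 2-fold higher (4.07%).

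The 12 most abundant replication-dependent members divided over all cells. Furthest apart was Hist1h1b, with 12.1 in WT and 3.86 in KO (0.318). Hist1h4i and Hist1h1e (linker histone H1.4) had 19.9 in WT and 8.73 in KO and 12.8 in WT and 5.62 in KO, both at a ratio of 0.439. Hist1h2ae (H2A) had 8.82 in WT and 4.46 in KO (0.506) and Hist1h4d (H4) 11.2 in WT and 5.99 in KO (0.536). All 5 were also among the members 2-fold higher in dividing cells in both libraries. Hist1h2ap had 34.9 in WT and 23.0 in KO (0.660) and Hist1h1c 114 in WT and 83.4 in KO (0.729). The intervals of Hist1h2bc (0.972, 0.904 to 1.05), Hist1h2be (0.948, 0.820 to 1.10), Hist2h2aa1, an H2A gene (1.06, 0.913 to 1.23), Hist3h2a, another (1.13, 0.985 to 1.29), and Hist4h4 (1.16, 0.987 to 1.37) included 1. Hist2h2aa1 shares 89.2% of its 50-base words with Hist2h2aa2 (0 UMIs), so these copies cannot be told apart. Hist1h2be, Hist3h2a, Hist1h1e and Hist2h2aa1 overlap another gene on their own strand, and 24 of the 69 members overlap one on the opposite strand.

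Dividing cells themselves were fewer in KO. They were 416 cells in WT (4.05%, Clopper-Pearson 3.68 to 4.45) and 165 in KO (1.996%, 1.71 to 2.32), a ratio of 0.492 (0.383 to 0.631). In T cells the share was 4.73% and 1.72%, in B cells 3.04% and 0.601%, and in plasma cells 7.52% and 1.90%. Conventional dendritic cells went the other way, with 5.64% (36 cells) and 12.7% (80 cells). They thus made up 8.65% of dividing cells in WT and 48.5% in KO. Near the cut, 203 WT and 116 KO cells had 2 UMIs of Mki67 and Top2a, and 72 and 44 had 3.

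Class by class, the replication-dependent level in dividing cells followed the pooled ratio of 0.705 in some classes and not in others. Dividing T cells had 1287 in WT and 1516 in KO (1.18, 1.05 to 1.32), dividing NK cells 1427 in WT and 1716 in KO (1.20, 0.961 to 1.503) and dendritic cells 503 in WT and 538 in KO (1.07, 0.944 to 1.22). B cells had 1156 in WT and 860.3 in KO (0.744, 0.632 to 0.874) and plasma cells 1237 in WT and 999 in KO (0.808, 0.690 to 0.941). The intervals of B and plasma cells held the pooled ratio. Cluster 5 had a ratio of 0.988 (0.786 to 1.23) and cluster 14 one of 0.884 (0.657 to 1.18), on 9 and 5 KO cells. T cells were higher in KO and B and plasma cells lower, and dendritic cells had a much lower level than dividing lymphocytes in both libraries. The KO levels rest on few cells: 19 T, 6 NK, 15 B and 12 plasma cells, against 130, 13, 34 and 100 in WT. The intervals do not cover the spread between cells. With classes weighted alike the pooled ratio in dividing cells was 1.05, and without dendritic cells it was 0.864. The weighting took in every class with a dividing cell in each library, among them cluster 8 and ILC3 with 1 such KO cell each. Monocytes or macrophages had low levels in dividing cells (141 in WT and 157 in KO), and in WT these were below those of their other cells (ratio 0.685, 0.480 to 0.948, 33 cells). Dividing over other was 5.43 in WT T cells, 5.79 in cluster 5, 4.18 in B cells, 2.70 in plasma cells and 1.85 in dendritic cells, and 3.45 in KO dendritic cells.

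In non-dividing cells the classes split. The replication-dependent level was higher in KO in plasma cells, 458 in WT and 576 in KO (1.26, 1.20 to 1.32), in T cells, 237 in WT and 278 in KO (1.17, 1.10 to 1.26), and in cluster 8, 324 in WT and 445 in KO (1.37, 1.12 to 1.68). It was lower in dendritic cells, 272 in WT and 156 in KO (0.574, 0.529 to 0.622), in monocytes or macrophages, 207 in WT and 119.6 in KO (0.579, 0.534 to 0.627), and in B cells, 277 in WT and 166 in KO (0.601, 0.556 to 0.649). ILC3 had 278 in WT and 175 in KO, neutrophils 339.7 in WT and 234 in KO and cluster 5 193 in WT and 159 in KO, all lower in KO. The intervals of NK cells, ILC2 and cluster 14 included 1. Within the finer plasma cell clusters the ratio was 1.32 (1.24 to 1.41) in the one that held most WT plasma cells and 1.42 (1.17 to 1.76) in the one led by Ighg2b, so it was above 1 in each. T and B cells, whose mix of clusters also differed between the libraries, were not compared within clusters. Handling genes and Paneth markers, given above, differed in the same classes, and their part here was not tested. The myeloid and B cell levels, between 207 and 340 in WT, were thus between 120 and 234 in KO, and plasma cells, highest of all in both libraries, were higher still in KO.

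**Figure D3:**
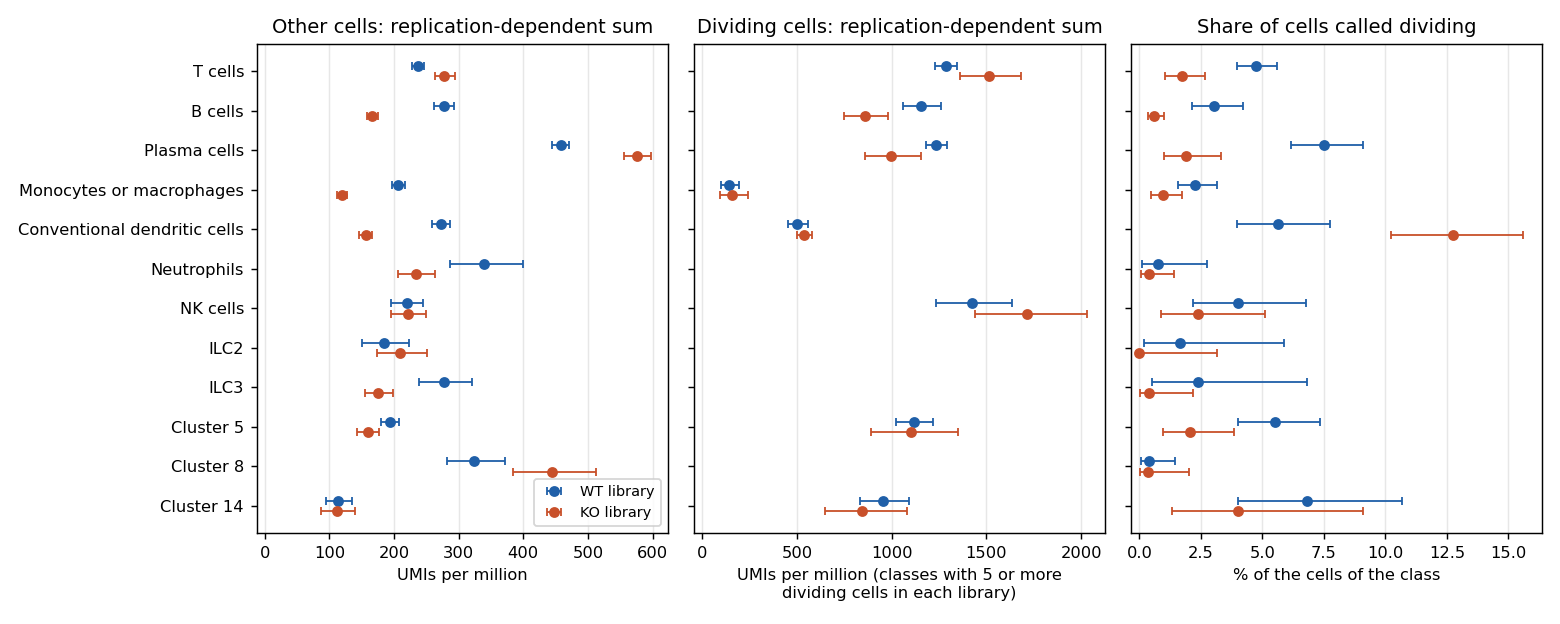
Summed replication-dependent histone level (CPM) in other cells and in dividing cells, and the share of cells that are dividing (percent), by cell class for WT and KO; bars are 95% counting intervals (Clopper-Pearson for shares), and dividing cells are shown for classes with at least 5 in each library. Plasma and T cells are higher in KO in the panel of other cells and myeloid and B cells lower, while conventional dendritic cells have a higher dividing share in KO (5.64% and 12.7%).

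Over 200 pairs of a member and a class with 50 or more UMIs, 8 were at least 2-fold apart: 1 was higher in KO (0.735% of all pairs of gene and class) and 7 lower (0.828%). The 1 higher was Hist1h2ap in dendritic cells, 9.07 in WT and 33.6 in KO (60 and 251 UMIs, ratio 3.70, 2.78 to 4.99). The lower ones were Hist1h1b in B cells, 15.7 in WT and 1.44 in KO (73 and 14 UMIs, 0.0918, 0.0478 to 0.164), Hist1h1b in cluster 5 (64 and 4 UMIs, 0.115, 0.0305 to 0.310), Hist1h1c in monocytes or macrophages, 117 in WT and 49.4 in KO (0.423, 0.375 to 0.475), H3f3b in neutrophils, and in cluster 14 Hist1h2ap, H2afx and H1f0 (ratios 0.374, 0.344 and 0.277).

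Hist1h2ap had other ratios within the dividing and the other cells of a class than over all of its cells. In T cells it was lower in KO over all cells (ratio 0.782, 0.665 to 0.915), but dividing T cells had 356 in WT and 660.4 in KO (1.85, 1.54 to 2.22), while other T cells had 11.1 in WT and 12.3 in KO (1.11, 0.793 to 1.54). B cells were alike: 0.431 (0.352 to 0.527) over all, 1.12 (0.878 to 1.42) in dividing and 1.38 (0.870 to 2.26) in other cells. In dendritic cells the dividing cells had 65.8 in WT and 158 in KO (ratio 2.40, 1.75 to 3.36), so both the level in dividing cells and the share of dividing cells were higher in KO. Plasma cells had 0.491 (0.408 to 0.588) over all, 0.603 (0.408 to 0.863) in dividing and 1.05 (0.830 to 1.32) in other cells. Over all cells of the finer plasma cell clusters it was 0.710 (0.561 to 0.890) in the one that held most WT plasma cells and 1.44 (0.526 to 5.49, on 4 and 47 UMIs) in the one led by Ighg2b. Hist1h1b had a low ratio within dividing cells of some lymphoid classes, with 132 in WT and 32.2 in KO (ratio 0.244, 0.101 to 0.512) in B cells, on 61 and 8 UMIs, and a ratio of 0.559 (0.331 to 0.893) in T cells. In dividing plasma cells the ratio was 0.807 (0.407 to 1.46). In the 19 dividing T cells of KO, then, Hist1h2ap was higher and Hist1h1b lower than in the 130 of WT.

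Hist1h1c, which was not higher in dividing cells, differed by class. Besides monocytes or macrophages it was lower in KO in dendritic cells, 159 in WT and 80.01 in KO (0.503, 0.454 to 0.557), and in B cells, 137 in WT and 70.6 in KO (0.515, 0.461 to 0.574). T cells had 54.5 in WT and 47.3 in KO (0.868, 0.743 to 1.01), and in plasma cells, where it was highest, 187 in WT and 237 in KO (1.27, 1.18 to 1.36). Hist1h2bc was also lower in KO in B and dendritic cells and higher in plasma cells, but unlike Hist1h1c it was higher in T cells too: 34.0 in WT and 15.1 in KO in B cells (0.445), 0.635 as the ratio in dendritic cells, 1.39 (1.03 to 1.87) in T cells and 64.3 in WT and 124 in KO in plasma cells (1.92, 1.73 to 2.14).

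**Figure D4:**
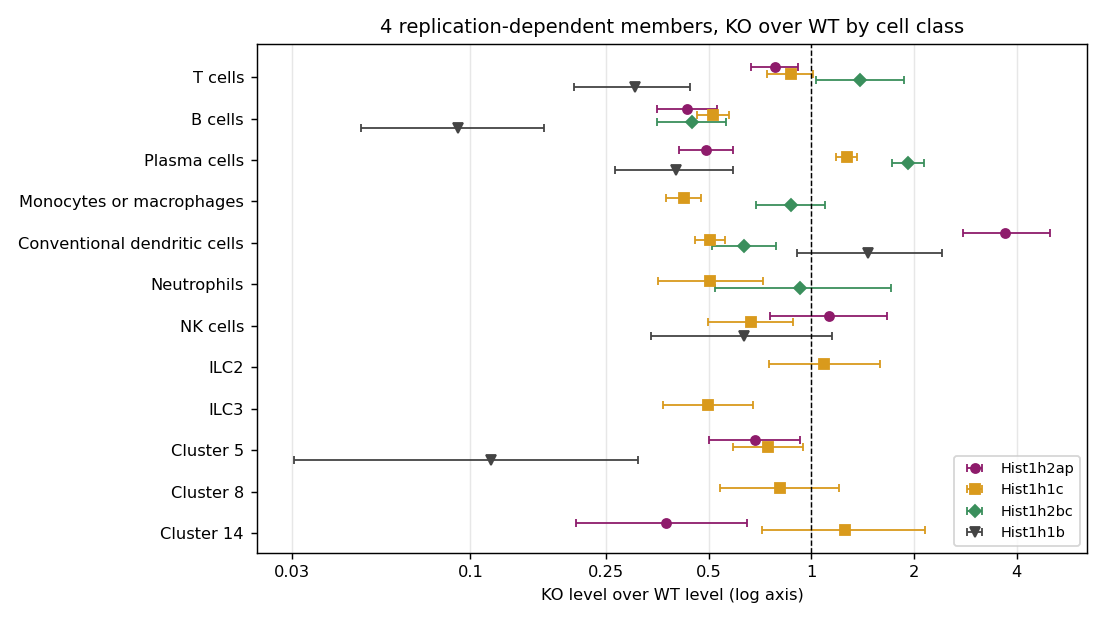
Ratio of KO over WT (logarithmic axis) by cell class for Hist1h2ap, Hist1h1c, Hist1h2bc and Hist1h1b, with 95% counting intervals, in classes where the gene had 50 or more UMIs. The interval of Hist1h2ap lies wholly above 1 only in conventional dendritic cells among the classes shown, and Hist1h1c and Hist1h2bc lie above 1 in plasma cells and below 1 in B and dendritic cells.

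Plasma cells, the antibody-secreting cells, held members on both sides. Of 27 replication-dependent members with enough UMIs there, 6 had intervals above 1 (12.6% of all genes in plasma cells) and 8 below (33.6%). The share below was thus close to that of all genes. The 6 above were Hist1h1c, Hist1h2bc, Hist1h2ac (H2A) at 7.16 in WT and 17.6 in KO (2.46), Hist3h2a at 10.9 in WT and 19.0 in KO (1.74), Hist1h3d (H3) at 3.04 in WT and 6.14 in KO (2.02) and Hist1h4c (H4) at 5.92 in WT and 9.51 in KO (1.61). The 8 below were Hist1h1e, Hist1h4d, Hist1h2ap and, with ratios of 0.117 to 0.466, Hist1h1a (linker histone H1.1), Hist1h3c, Hist1h2ae, Hist1h1b and Hist1h4i. Over all WT cells the dividing over other ratio was 3.46 to 49.7 for the 8 and 0.644 to 2.85 for the 6. Whether other genes that differ in plasma cells split in the same way was not tested. The split is thus not shown to be particular to histone genes. The share of dividing plasma cells was 7.52% in WT and 1.90% in KO. The members named here beyond the most abundant were chosen after their values were seen. In B cells 9 of 13 lay below 1 (19.4% of all genes) and none above (21.2%), with all 9 measured replacement members below 1 too. In T cells 8 of 34 lay below 1 (22.3%) and 5 above (20.6%), near the share of all genes.

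The genes that make and place histones had summed levels that were not lower in KO over all cells. In dividing cells most of them were lower, as were most of all measured genes. Of 14 genes of histone mRNA processing and transcription, 7 were higher and 7 lower in KO over all cells and none was 2-fold apart, with summed levels of 537 in WT and 553 in KO (ratio 1.03). Their median log2 ratio was 0.01, and that of all genes −0.000173. Slbp, which binds the stem-loop, had 144 and 148, and its dividing over other ratio was 1.99 in WT and 1.27 in KO. Of 26 histone chaperone and exchange genes 16 were higher and 10 lower, none 2-fold, with sums of 2875 and 3069. In dividing cells 11 of 13 measured processing and transcription genes were lower in KO, with a sum ratio of 0.784 (0.744 to 0.826) and a median log2 ratio of −0.26 against −0.04 for all genes. Of the 26 chaperone and exchange genes 18 were lower there, while their sum was level (ratio 1.0005, 0.979 to 1.02). Their median log2 ratio was −0.13, against the same −0.04 for all genes. With that negative median, most of all measured genes were lower there too. Handling genes were higher in KO in these cells too (ratio 1.83), and their part was not tested. Over all cells the chromatin assembly subunit Chaf1b stood at 7.28 in WT and 13.9 in KO (ratio 1.91), and the H3.3 chaperones Daxx and Hira had ratios of 1.35 and 1.21. Chaf1b, Daxx and Hira were chosen after their values were seen. Within dividing cells the sum of the 20 S phase genes was 1809.8 in WT and 1275 in KO (ratio 0.704), and that of the 18 G2 and M phase genes 1029.7 and 617 (0.599). In pooled dividing cells the S phase sum was thus lower in KO by about as much as the replication-dependent histone sum (0.705), and the G2 and M phase sum by more, and how far the larger dendritic cell share goes with both was not tested for the cell cycle lists.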

How the data were processed

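The deposited matrices hold raw counts of UMIs for each gene in each droplet barcode. The submitters' processing notes name Cell Ranger 7.0.0 and GRCm38. No source used here gives the annotation release, the strand setting or whether intronic reads were counted.

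Cells with at least 200 genes, 500 UMIs and at most 20% mitochondrial UMIs were kept. Scrublet in scanpy 1.11.5 called 637 doublets in WT (5.85%) and 416 in KO (4.79%), which were left out. The pooled cells were grouped from 2000 variable genes, 30 principal components and 20 neighbours with Leiden clustering at resolution 1 (leidenalg 0.10.2), with no correction for library, and clusters were named from marker lists. Stem-loops were searched in GENCODE M21 transcripts and motifs in RefSeq promoters, where 62 members had an entry.

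UMIs were summed over cells and divided by all UMIs of those cells. Levels have exact Poisson intervals, ratios conditional binomial intervals and shares Clopper-Pearson intervals, at 95%. With 1 library per genotype, cells were not used as replicates and no test across genes was run. A member was called 2-fold apart when log2 of the levels, with 10 CPM added to each, differed by a fold of 2 or more, for 50 or more UMIs. The members and the gene lists were chosen with earlier results of these data known.

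Named are Dpf2, every replacement member, the 12 replication-dependent members with the most UMIs, every member called in a class, and the 5 highest and 5 lowest between dividing and other cells. Other names were chosen after their values were seen, as said there. The computation was tested on simulated data for 54838 genes in the comparison of KO with WT over all cells. The intervals held the true ratio for 95.4% of 10586 genes without a difference and for 92% to 96% of the 50 genes at each fold of 0.25, 0.5, 2 and 4. The 2-fold rule called 98% of genes at 4-fold, 64% at 0.25-fold and none at 2-fold or 0.5-fold, so it misses true 2-fold differences. Alternatives to these settings were tried one at a time, except that thinning also left out shallower cells and lowered the dividing cut to 1 UMI.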

Additional observations from a re-analysis of the deposited data

Results flagged for a closer look

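Classes differed in the direction of the replication-dependent histone sum between KO and WT in non-dividing cells, and this difference between classes was not tested, since each class has 1 library per genotype. The ratio of KO over WT was above 1 in cluster 8 (1.37), plasma cells (1.26) and T cells (1.17). It was below 1 in conventional dendritic cells (0.574), monocytes or macrophages (0.579), B cells (0.601), ILC3 (0.631), neutrophils (0.688) and cluster 5 (0.825).

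Hist1h2ap, an H2A gene high in dividing cells, also differed in direction between classes over all of their cells, again untested. Its ratio was 3.70 in conventional dendritic cells and below 1 in T cells (0.782), cluster 5 (0.683), plasma cells (0.491), B cells (0.431) and cluster 14 (0.374). The share of dividing cells was higher in KO in dendritic cells and lower in these other classes. In cluster 14, with 17 dividing cells in WT and 5 in KO, the interval of its ratio included 1 (0.588, 0.123 to 2.27).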

How the results depend on the processing

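The KO over WT ratios of the replication-dependent and replacement sums and of the share of dividing cells kept their side of 1 under every alternative run, except that of the replication-dependent sum in dividing cells, and the sums' ratios of dividing over other cells stayed above 1. Among single genes, H3f3a went from 1.09 to 0.906 with classes weighted alike, and Hist1h2ap in plasma cells from 0.491 to 1.44 in the finer cluster led by Ighg2b, on 4 and 47 UMIs. The values that left the counting interval of the reported value follow.

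With doublet calls kept in, dividing over other was 3.62 for replication-dependent members in WT and 1.48 for replacement members in KO. With immunoglobulin, mitochondrial and ribosomal protein genes left out of the denominator, KO over WT of the replication-dependent sum was 0.698 in all and 0.778 in other cells, that of the replacement sum 0.742, and replacement dividing over other in WT 1.42. With cells averaged alike, these sums gave 0.802, 0.856 and 0.773, and replacement dividing over other in KO 1.48.

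With cells thinned to 2000 UMIs, the replication-dependent KO over WT ratio was 0.803 in all, 0.837 in other and 0.785 in dividing cells. Dividing over other was then 2.17 in WT and 2.03 in KO, and 1.20 and 1.18 for replacement members. With dividing meaning 2 or more UMIs of Mki67 and Top2a, dividing over other was 3.27 and 2.72 for replication-dependent and 1.37 and 1.42 for replacement members. With 5 or more it was 4.23 and 3.92, and 1.48 and 1.62, and the replication-dependent KO over WT ratio in dividing cells was 0.752.

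With classes weighted alike, the replication-dependent KO over WT ratio was 0.804 in all, 0.896 in other and 1.05 in dividing cells, and the replacement ratio 0.738. Dividing over other was then 3.32 in WT and 3.83 in KO, and 1.34 for replacement members in KO. These values and the 1.05 take in classes with as few as 1 dividing cell in a library. Without the most abundant member (Hist1h1c or H3f3b), KO over WT was 0.873 for replication-dependent members in other cells and 0.931 for replacement members. Dividing over other was then 6.13 and 4.86, and 1.95 and 1.90 for replacement members.

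Among cells with Xist and no Y-linked UMI, the KO over WT ratios of the replication-dependent sum in all and in other cells and of the replacement sum were 0.608, 0.776 and 0.750. Among cells with Y-linked UMIs and no Xist they were 0.787, 0.773 and 0.787. The number of member and class pairs 2-fold apart, 8 in the report, was 28 with 1 CPM added, 1 with 50 added and 13 with no minimum of UMIs per class. Leaving out conventional dendritic cells, chosen after seeing the data, gave 0.864 for the replication-dependent ratio in dividing cells, 4.19 for dividing over other in KO and 0.282 for the ratio of the shares of dividing cells. Within the finer plasma cell clusters, also chosen after seeing the data, the replication-dependent sum in other cells, Hist1h1c, Hist1h2bc and H3f3b kept their side of 1. Leaving out the cluster led by Defa24, also chosen after seeing the data, gave 0.711 and 0.769 for the replication-dependent and replacement sums.

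No paired analysis was possible because each genotype has 1 library, which leaves no replicate to drop. Depth limits single members in dividing cells, where many have under 50 UMIs. With 1 library each, genotype, library, sort and handling cannot be told apart.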
